A study of Mus musculus with 16 samples.

Results

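Injured knee joints of mice lacking Trem2 were compared with injured joints of wildtype mice across all genes measured, by bulk RNA-seq of joint cells. The comparison takes the 8 libraries that the labels give as injured, 4 WT D7 and 4 Trem2-/- D7, out of 16 in the series. The other 8 libraries, 4 WT D0 and 4 Trem2-/- D0 from uninjured joints, serve as the background of the genotype. WT mice were C57BL/6, and Trem2-/- mice carry a Trem2 knockout on the same strain, the Jackson Laboratory line that the paper's methods name C57BL/6J-Trem2em2Adiuj/J. Mice of both genotypes were male and 10 weeks old when the anterior cruciate ligament of the right knee was ruptured by tibial compression, and D7 is 7 days after that injury. The extract protocol in the labels names diabetic mice and a TruSeq library kit, neither of which the methods name. The labels also give an age of 16 weeks and a whole-joint homogenate for these libraries. The methods instead describe cells released from the joint with collagenase and treated to lyse red blood cells. The same account of cell isolation goes on to a magnetic separation by CD45, and the sources used here do not say whether it was applied to these libraries, so the balance of leukocyte and matrix transcripts is uncertain to that extent. The knockout is germline, so it is not restricted to macrophages. The labels number the replicates and name no litter, batch or day, so p-values measure the spread between these samples.

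Trem2 was measured first as a check of the labels. Trem2 levels in CPM, sequencing reads scaled to the size of each library with the authors' TMM factors, were 15.1, 22.5, 18.9 and 10.7 in WT D7 mice 1 to 4 and 4.13, 4.69, 3.42 and 4.84 in Trem2-/- D7 mice 1 to 4. The 2 genotypes did not overlap (log2 fold change -1.72, SE 0.25, adjusted p = 0.0503). Reads remained in every knockout library, and which stretch of the gene the allele removes is not given in the sources used here, so these reads neither check nor contradict the deletion. The libraries came from joint tissue with leukocytes in it. Col1a1, a collagen of fibroblasts and bone, stood between 29619 and 58146 CPM in the 8 mice, Prg4, the lubricin of the joint surface, between 4275 and 14124 CPM, and Ptprc, the CD45 antigen of leukocytes, between 140 and 440 CPM.

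Knee joints hold synovium, cartilage, tendon and ligament insertions, fat and bone, and after ligament rupture they also hold blood leukocytes. TREM2 is a lipid-sensing receptor of macrophages and related myeloid cells that signals through the adaptor DAP12. B cells are made in marrow, where pro-B and pre-B cells rearrange their receptor genes with the recombinase RAG1, and mature B cells signal through CD79A and CD79B. Plasmacytoid dendritic cells are interferon-producing relatives of the conventional, antigen-presenting dendritic cells. Tendon cells are marked by the transcription factor Scx and the membrane protein Tnmd. Apart from Trem2 and Ptprc, the genes described here lie outside the expression heatmap with which the study described the knockout.

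Across the 13173 genes tested, 753 (5.72%) were called, at the cutoffs that the study's methods give, an unadjusted p under 0.05 and a log2 fold change beyond 0.32 in either direction on the log2(CPM + 1) scale. Of these, 156 (1.18%) were higher and 597 (4.53%) were lower in Trem2-/- D7. With limma and the Benjamini-Hochberg adjustment, 0 genes had an adjusted p under 0.05, against 958 (7.27%) with an unadjusted p under 0.05. On the reads recovered from the table the adjusted count was 1 with voom and 0 with edgeR. Every call below is therefore a call before adjustment. The groups did not overlap for 1097 genes (8.33%), 467 (3.55%) higher and 630 (4.78%) lower in Trem2-/- D7. In uninjured joints, 283 genes (2.15%) were called between the genotypes, 1.37% of those tested in the lower direction. The genotype difference itself differed between injured and uninjured joints, by the same cutoffs, for 1026 genes (7.79%), with 5.02% more negative and 2.77% more positive at D7.

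The genes of interest were put on 33 lists by cell type or function, with 367 genes tested. The lists were chosen with earlier results of these data known, so the shares called describe them and are not an independent test. Of 71 lymphoid genes, 35 (49.3%) were called lower and 0 higher, with a median log2 fold change of -0.50 against 0.01 over all genes tested. Of 35 dendritic genes, 12 (34.3%) were called lower and 0 higher. Of 75 marrow genes, 8 (10.7%) were called lower and 0 higher. The lowest list medians among them were -0.70 for mast cells and basophils and -0.62 for mature neutrophils. Of 8 pan-leukocyte genes, 5 were called lower and 0 higher, with a median of -0.63. Tendon genes went the other way, with 3 of 9 (33.3%) called higher and 0 lower, and of 103 matrix genes 4 (3.88%) were called higher and 0 lower. Of 42 chemokine and chemokine receptor genes, 3 (7.14%) were called higher and 2 (4.76%) lower. The background shares among the 13173 genes were 1.18% and 4.53%. The lower calls of chemokine genes were thus near the background share and do not set this theme apart. Of the genes called, Kera, Spib and Ccr9 are each counted under 2 of these themes, and some genes not called are also counted more than once. With each gene counted once, 9 of the 367 were called higher and 61 lower. All 33 lists are set against each other in the plot of fold changes by list.

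**Figure D1:**
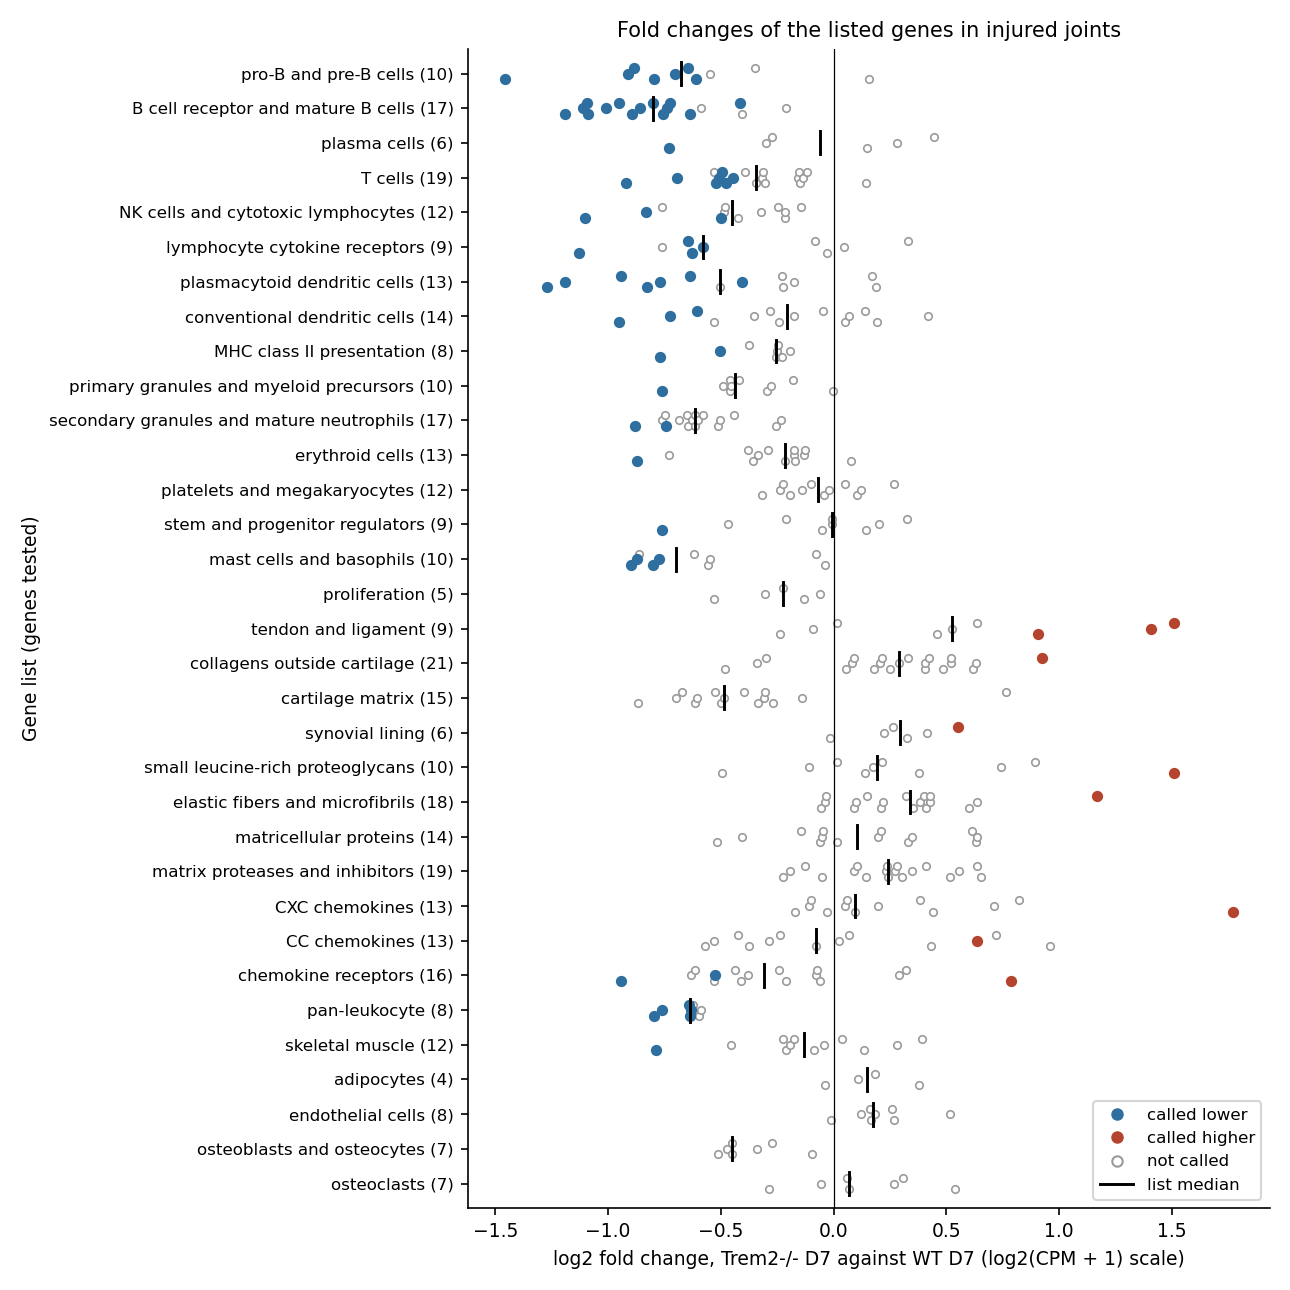
Each point is 1 gene of the list named at the left, placed at its log2 fold change between Trem2-/- D7 and WT D7 on the log2(CPM + 1) scale, with the number of genes tested in brackets. Blue points were called lower, red points called higher and open points not called, and a black bar marks the list median, which lies at -0.80 for mature B cell genes and at 0.53 for tendon genes.

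Promoter sequences are shown for lymphoid and dendritic genes with some of the largest falls and for the tendon gene Tnmd, which was called higher. Each is the 250 bases before the RefSeq start site on GRCm38.p6, 5′ to 3′ on the strand of the gene. Rag1 is taken from chr2:101649533-101649782 on the minus strand, Pou2af1 from chr9:51213440-51213689 on the plus strand, Spib from chr7:44532072-44532321 on the minus strand, Il21r from chr7:125603179-125603428 on the plus strand, Siglech from chr7:55767934-55768183 on the plus strand, and Tnmd from chrX:133850758-133851007 on the plus strand. Capitals mark the E-box letters CACCTG or CATCTG on either strand, a kind of site that the E proteins of lymphoid and plasmacytoid dendritic cells bind.
Rag1: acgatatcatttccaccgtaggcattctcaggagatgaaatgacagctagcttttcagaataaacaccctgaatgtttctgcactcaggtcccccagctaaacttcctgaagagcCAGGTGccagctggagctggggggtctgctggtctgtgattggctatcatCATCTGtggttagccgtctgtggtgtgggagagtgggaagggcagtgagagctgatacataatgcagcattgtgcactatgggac
Pou2af1: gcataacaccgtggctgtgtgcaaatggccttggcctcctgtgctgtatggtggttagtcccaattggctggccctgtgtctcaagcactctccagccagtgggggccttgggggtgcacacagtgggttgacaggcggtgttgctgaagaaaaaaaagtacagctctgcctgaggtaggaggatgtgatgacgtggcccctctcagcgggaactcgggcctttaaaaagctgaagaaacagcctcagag
Spib: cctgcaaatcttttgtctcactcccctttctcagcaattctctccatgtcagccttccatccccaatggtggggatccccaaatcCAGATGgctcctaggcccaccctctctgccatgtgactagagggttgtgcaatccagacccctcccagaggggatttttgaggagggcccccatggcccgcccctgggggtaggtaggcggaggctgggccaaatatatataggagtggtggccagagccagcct
Il21r: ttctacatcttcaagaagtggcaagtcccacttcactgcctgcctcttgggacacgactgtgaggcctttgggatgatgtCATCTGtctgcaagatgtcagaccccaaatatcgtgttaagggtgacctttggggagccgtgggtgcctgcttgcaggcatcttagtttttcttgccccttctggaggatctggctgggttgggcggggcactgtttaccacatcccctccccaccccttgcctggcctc
Siglech: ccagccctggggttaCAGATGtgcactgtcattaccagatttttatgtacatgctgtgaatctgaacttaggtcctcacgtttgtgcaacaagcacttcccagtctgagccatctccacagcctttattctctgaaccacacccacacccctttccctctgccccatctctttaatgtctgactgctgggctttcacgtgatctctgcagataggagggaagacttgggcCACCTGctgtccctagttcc
Tnmd: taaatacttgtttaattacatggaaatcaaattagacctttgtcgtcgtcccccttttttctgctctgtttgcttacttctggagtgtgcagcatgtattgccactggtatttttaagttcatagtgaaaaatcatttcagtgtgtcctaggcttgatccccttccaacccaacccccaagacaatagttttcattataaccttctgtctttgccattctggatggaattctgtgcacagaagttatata
Rag1 and Siglech held a match to each motif, Spib and Il21r held 1 match to CATCTG, and Pou2af1 and Tnmd held neither in this window. Of all 27025 genes with a promoter of this length, 8703 (32.2%) held CACCTG or CATCTG. The share was 9 of 12 for the mature B cell genes that had an entry, 6 of 10 for plasmacytoid dendritic genes, 5 of 10 for pro-B and pre-B genes and 2 of 7 for tendon genes. These matches are descriptions of letters and not measured binding.

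Genes of B cells were called lower in Trem2-/- D7 joints at the precursor and the mature stage. Of 10 pro-B and pre-B genes tested, 7 were called lower and 0 higher (median log2 fold change -0.68), and of 17 genes of the B cell receptor and mature B cells, 14 were called lower and 0 higher (median -0.80). The count of precursor genes was 4 without WT mouse 3 and also 4 without Trem2-/- mouse 3. The count of mature genes lay between 11 and 16 when any 1 mouse was left out. In uninjured joints the medians were -0.46, with 2 genes called lower, and -0.16, with 0 called.

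Rag1, the recombinase that cuts antigen receptor genes, was at 19.2, 14.2, 20.1 and 7.42 CPM in WT D7 and at 3.63, 3.03, 5.99 and 6.34 CPM in Trem2-/- D7. WT mouse 4 was the lowest of its group and stood just above Trem2-/- mice 3 and 4 (log2 fold change -1.46, SE 0.33, adjusted p = 0.441, exact permutation p = 0.0286, the smallest that 70 assignments allow). Every gene whose groups do not overlap has this permutation p, as 8.33% of the genes tested did. It therefore adds nothing to the separation of the groups. Rag1 overlaps the annotated gene B230118H07Rik on its own strand, so its level is uncertain to that extent. Dntt, the polymerase that adds bases at the joints of these genes, was at 2.14 CPM in WT mouse 4 and between 4.98 and 5.21 CPM in the other WT mice, against 0.907 to 4.84 CPM in Trem2-/- D7. The groups overlapped, and its call was lost in 6 of the 8 fits that left out 1 mouse, all but those without WT mouse 4 or Trem2-/- mouse 4 (log2 fold changes from -0.82 to -0.70). Vpreb1, a part of the surrogate light chain, was at 2.02, 2.49, 1.62 and 1.13 CPM against 0.773, 0.758, 0.336 and 1.00 CPM, but 10.9% of its 75-base stretches are also in Vpreb2. Pax5, the factor that commits cells to the B lineage, was at 3.97, 5.66, 3.93 and 2.38 CPM against 1.44, 1.17, 1.68 and 2.09 CPM. All 4 WT mice were above all 4 knockout mice for Vpreb1 and for Pax5. Ebf1, which acts before Pax5 in B cells and is also made by stromal cells, was between 51.7 and 69.6 CPM in WT D7 and between 64.0 and 73.8 CPM in Trem2-/- D7, with a log2 fold change of 0.16 (SE 0.20) and no call.

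Among mature B cell genes, Cd79a, the signaling chain of the receptor, was at 23.7, 32.5, 30.8 and 14.2 CPM in WT D7 and at 8.13, 10.1, 12.3 and 13.4 CPM in Trem2-/- D7. Cd79b, its partner chain, was at 14.1, 16.0, 17.7 and 9.03 CPM against 4.10, 5.86, 7.11 and 6.76 CPM. For both chains WT mouse 4 was the lowest WT value, and it stayed above every knockout value (Cd79b log2 fold change -1.11, SE 0.27, adjusted p = 0.441). Spib, an Ets-family factor of B cells and plasmacytoid dendritic cells, was at 21.9, 27.1, 25.0 and 13.2 CPM against 8.03, 8.41, 11.3 and 7.42 CPM (log2 fold change -1.19, SE 0.28). Pou2af1, a coactivator of immunoglobulin genes, was at 29.5, 26.0, 27.1 and 24.2 CPM against 8.87, 11.6, 15.0 and 13.0 CPM (log2 fold change -1.10, SE 0.25). For Spib and Pou2af1 the lowest WT mouse was above the highest knockout mouse. Ms4a1, Blk, Bank1, Btk, Cd37 and Fcmr were called lower with the groups apart, with log2 fold changes from -1.01 for Blk to -0.73 for Btk, and the call of Fcmr was lost without WT mouse 2 (-0.61), WT mouse 3 (-0.64) or Trem2-/- mouse 1 (-0.61). Cd72, Fcrla and Cr2 were called lower with 1 or more mice overlapping, and the calls of Cd72 and Cr2 were lost in 3 and 4 of the 8 fits without 1 mouse. Cd22, Fcer2a and Cxcr5 were not called, at -0.59, -0.41 and -0.21.

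Of 6 genes of antibody-secreting plasma cells, 1 was called lower and 0 higher, and the list median was -0.06. Without WT mouse 3, 1 was called higher. The gene called was Irf4, a factor that T cells and dendritic cells also use, at 29.2, 28.4, 23.5 and 16.2 CPM in WT D7 and 13.2, 12.3, 14.2 and 16.4 CPM in Trem2-/- D7, where mouse 4 was level with WT mouse 4. Jchain, which joins secreted antibodies, was at 6.62, 10.9, 2.86 and 9.09 CPM against 8.97, 3.03, 3.81 and 7.59 CPM, and the groups overlapped along their length. Most of the summed level of the 6 genes came from Xbp1, at 161 to 200 CPM in WT D7 and 191 to 214 CPM in Trem2-/- D7, and Sdc1, at 98.5 to 148 CPM and 154 to 188 CPM, both of which other joint cells also express, so the sum is not read as a plasma cell level.

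**Figure D2:**
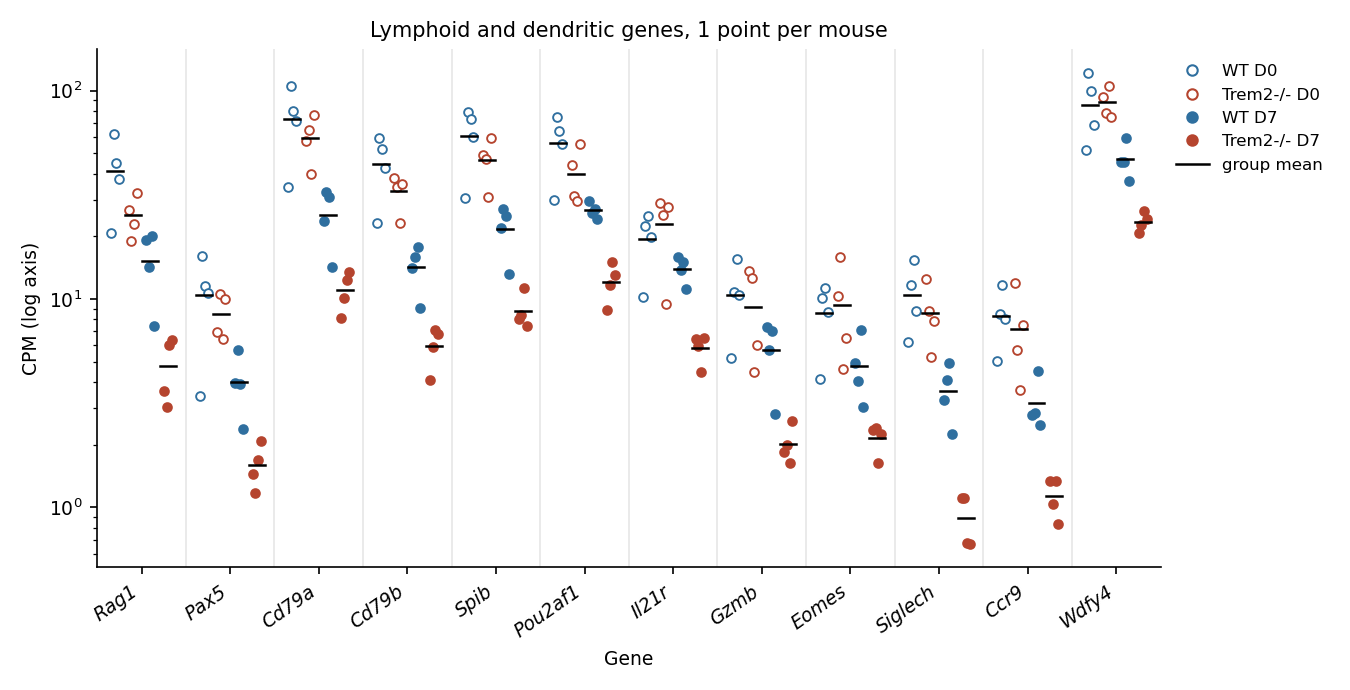
Levels in CPM on a log axis of 12 lymphoid and dendritic genes, with 1 point per mouse, 4 mice per group and the group mean as a bar; open points are uninjured and filled points injured joints. At D7 the red Trem2-/- points lie below the blue WT points for each gene drawn, while the D0 groups overlap for each of them.

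Of 19 T cell genes, 7 were called lower (median -0.34). That count was 2 without WT mouse 1, 3 without Trem2-/- mouse 4, and 4 without WT mouse 2, WT mouse 3, Trem2-/- mouse 1 or Trem2-/- mouse 2, and it was 1 with a pseudocount of 5. The receptor genes themselves were near the floor of measurement, where 3 reads correspond to 0.101 to 0.250 CPM. Cd3e was at 0.905, 0.906, 0.965 and 0.594 CPM in WT D7 and 0.706, 0.482, 0.448 and 0.334 CPM in Trem2-/- D7, without a call. Gata3, a factor of T cells and innate lymphoid cells, was called lower, at 3.20, 2.72, 2.21 and 2.61 CPM against 1.41, 1.93, 1.68 and 1.251 CPM. The genotypes were apart for Gata3. Cd2, Lck, Cd28, Bcl11b and Lat were also called, between -0.69 and -0.45, and for each at least 1 mouse overlapped.

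Of 12 natural killer and cytotoxic genes, 3 were called lower, and all 12 had the lower mean in Trem2-/- D7. The count was 1 with a pseudocount of 5, 5 with edgeR and 6 without the D0 libraries. Gzmb, the cytotoxic protease granzyme B, was at 7.31, 5.72, 7.03 and 2.79 CPM in WT D7 and 1.85, 2.00, 1.62 and 2.59 CPM in Trem2-/- D7 (log2 fold change -1.10, SE 0.35). Eomes, a factor of natural killer and memory T cells, was at 4.94, 4.02, 7.14 and 3.03 CPM against 2.35, 2.41, 1.62 and 2.25 CPM, and its call was lost without WT mouse 3 (log2 fold change -0.65) or Trem2-/- mouse 3 (-0.74). Tbx21, the factor T-bet, was at 1.74, 1.64, 1.62 and 1.07 CPM against 0.773, 0.689, 0.784 and 0.834 CPM. Of the 9 lymphocyte cytokine receptors, Il21r, Il7r, Il10ra and Il2ra were called lower, and Il7r lost its call without WT mouse 3 (-0.57) or Trem2-/- mouse 3 (-0.57). Il21r was at 15.9, 13.7, 15.0 and 11.2 CPM in WT D7 and 6.42, 5.93, 4.48 and 6.51 CPM in Trem2-/- D7 (log2 fold change -1.13, SE 0.31, adjusted p = 0.451). All 4 WT mice were above all 4 knockout mice for each of the 4 receptors. The common chain Il2rg and the shared receptors Il4ra and Il27ra were not called, at 0.05, -0.03 and -0.08. Il2rb, a chain shared by the receptors for interleukins 2 and 15, was at 20.3, 15.9, 26.2 and 10.9 CPM in WT D7 and 10.2, 12.7, 7.73 and 9.51 CPM in Trem2-/- D7, with overlap and no call (log2 fold change -0.76, SE 0.37). Il15ra was not called, at 0.33.

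General leukocyte genes were lower beside these results. All 8 pan-leukocyte genes had the lower mean in Trem2-/- D7 and 5 were called (Laptm5, Vav1, Coro1a, Lcp1 and Cd53), with a median log2 fold change of -0.63. Their summed level was 1520 to 3330 CPM in WT D7 and 1226 to 1526 CPM in Trem2-/- D7, so the ranges met at their edges. The count of 5 was 2 without WT mouse 3, Trem2-/- mouse 1 or Trem2-/- mouse 2, and 3 without WT mouse 4 or Trem2-/- mouse 4, and it was 8 with the replicate block. Laptm5, a lysosomal membrane protein of blood cells, was at 499, 649, 915 and 673 CPM against 364, 405, 385 and 384 CPM. WT mouse 3 had the highest list mean of the 8 mice for 9 of the 33 lists, among them the pan-leukocyte, neutrophil, mature B cell and plasmacytoid dendritic lists. The part of leukocyte content in the lymphoid and dendritic results was not tested, and in bulk libraries fewer cells of a type and less RNA per cell cannot be told apart. In uninjured joints the pan-leukocyte median was 0.27 with 0 genes called, and the difference between the D7 and D0 contrasts was called for 5 of the 8.

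**Figure D3:**
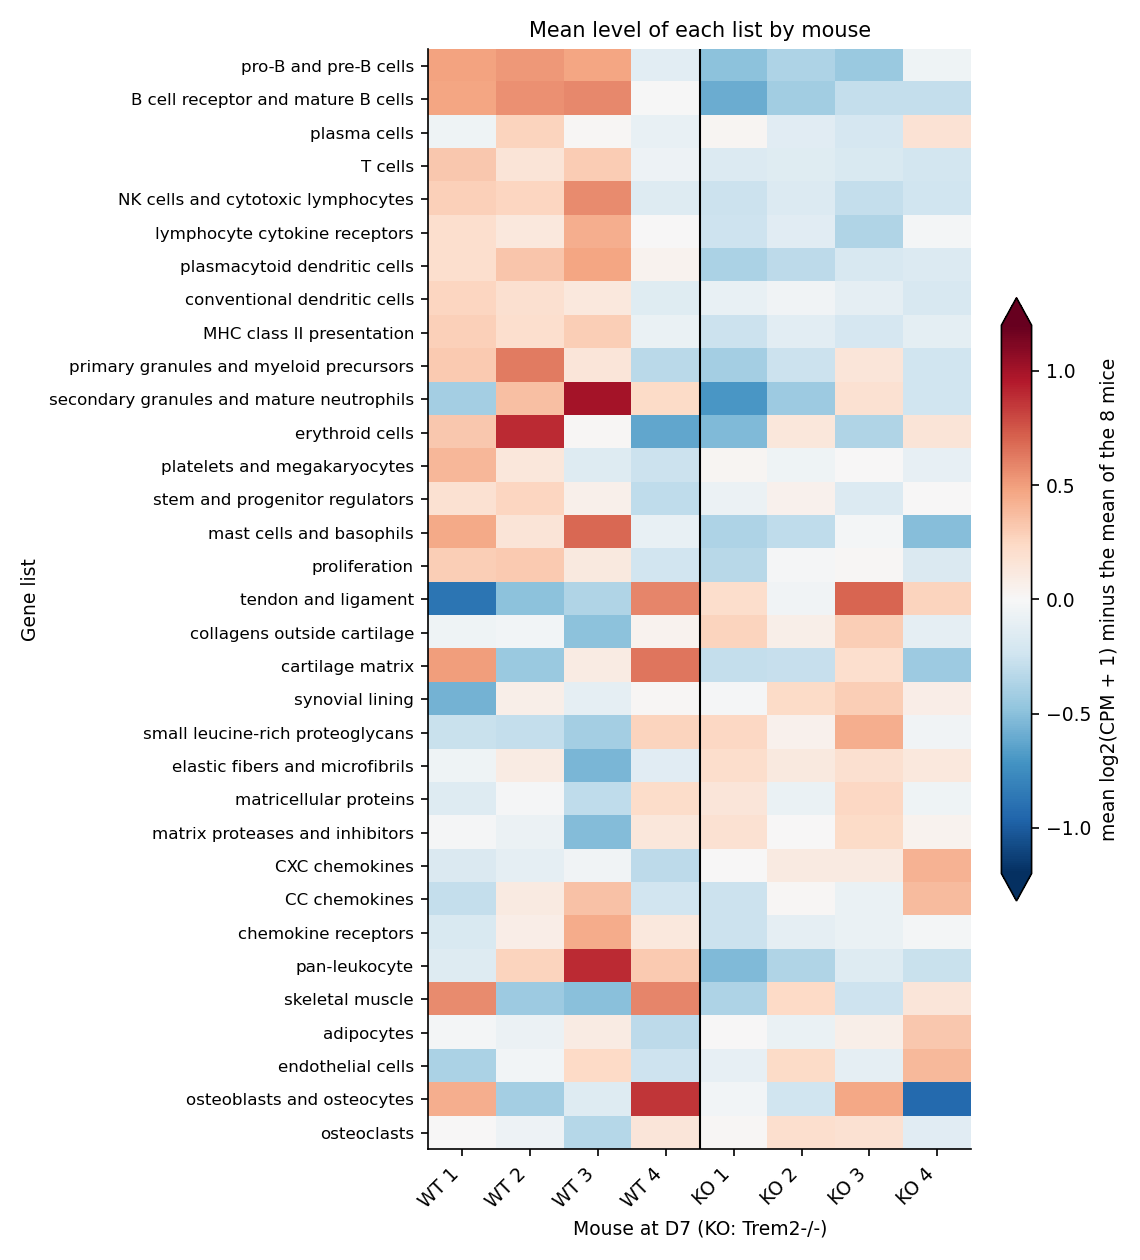
Each line is a gene list and each column 1 of the 8 D7 mice; color is the mean log2(CPM + 1) of the list in that mouse minus its mean over the 8 mice, red above and blue below. In the pair of B cell lines at the top WT mice 1 to 3 are red, WT mouse 4 is nearly white and the Trem2-/- mice are blue or, for mouse 4 in the first, nearly white, and WT mouse 3 is the darkest red in the neutrophil and pan-leukocyte lines.

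Of 13 plasmacytoid genes tested, 7 were called lower and 0 higher (median -0.50), and the count was between 5 and 7 when any 1 mouse was left out. Siglech, the surface lectin that marks these cells in mice, was at 3.27, 4.08, 4.93 and 2.26 CPM in WT D7 and 1.11, 1.10, 0.672 and 0.667 CPM in Trem2-/- D7 (log2 fold change -1.27, SE 0.26, adjusted p = 0.441). Ccr9, a chemokine receptor of plasmacytoid cells and gut-homing lymphocytes, was at 2.79, 2.83, 4.52 and 2.49 CPM against 1.34, 1.03, 1.34 and 0.834 CPM (log2 fold change -0.94, SE 0.28). Neither gene had a knockout mouse within the WT range. Annotated genes overlap Ccr9, and the sources used here do not say whether reads were counted by strand. Lair1, an inhibitory collagen receptor, was at 17.3, 11.3, 14.8 and 9.98 CPM against 6.75, 7.51, 7.11 and 7.67 CPM, and its call was lost without WT mouse 1 (log2 fold change -0.64). Tlr9, the sensor of unmethylated DNA, was at 4.18, 5.04, 8.07 and 8.91 CPM against 2.96, 3.17, 4.09 and 4.75 CPM, and without WT mouse 4 its call was lost (-0.49). Ly6d, Upb1 and Spib were the others called, and the call of Upb1, at 0.0834 to 1.08 CPM over the 8 mice, was lost in 7 of the 8 fits without 1 mouse. The other 6 members were not called. Tcf4 was at 190 to 233 CPM in WT D7 and 235 to 250 CPM in Trem2-/- D7, and Bst2 at 31.7 to 51.2 against 35.4 to 67.1 CPM. Irf7, Irf8, Pacsin1 and Cox6a2 had log2 fold changes of -0.18, -0.23, -0.22 and -0.50.

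Of 14 conventional dendritic genes, 3 were called lower (median -0.21), Wdfy4, Flt3 and Kmo. Wdfy4, required for cross-presentation and also expressed in B cells, was at 45.5, 45.7, 59.6 and 36.8 CPM in WT D7 and 20.8, 22.7, 26.3 and 24.2 CPM in Trem2-/- D7, with every WT mouse above every knockout mouse (log2 fold change -0.95, SE 0.22, adjusted p = 0.441). The count was 1 without WT mouse 1, 2 or 3 or without Trem2-/- mouse 1. The subset markers Xcr1 and Clec9a were at 1.11 to 2.07 and 1.07 to 2.21 CPM in WT D7 and at 0.834 to 1.38 and 1.23 to 2.00 CPM in Trem2-/- D7, and were not called. All 8 MHC class II presentation genes had the lower mean in Trem2-/- D7, and 2 of them were called, H2-Ob and the class II transactivator Ciita. The count was 1 without WT mouse 1, where Ciita lost its call (-0.36), or without Trem2-/- mouse 2 (Ciita -0.49). Cd74, the invariant chain, was at 360, 320, 359 and 304 CPM against 242, 280, 248 and 265 CPM, which did not overlap but was not called (log2 fold change -0.37, SE 0.19, adjusted p = 0.713).

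All 17 genes of secondary granules and mature neutrophils had the lower mean in Trem2-/- D7, with a median log2 fold change of -0.62, but 2 were called, Padi4 and Csf3r. Padi4, which citrullinates histones in neutrophils, was at 46.0, 59.0, 112 and 70.6 CPM in WT D7 and 31.2, 36.3, 44.1 and 35.9 CPM in Trem2-/- D7, with WT mouse 1 just above the highest knockout mouse (log2 fold change -0.88, SE 0.30, adjusted p = 0.558). Csf3r, the receptor for granulocyte colony-stimulating factor, was at 213, 288, 572 and 504 CPM against 182, 204, 286 and 212 CPM, and its call was lost without WT mouse 3 (-0.53) or WT mouse 4 (-0.59). The count of 2 became 8 without the D0 libraries, 5 without WT mouse 1, and 1 without WT mouse 3 or WT mouse 4. The alarmin S100a8 was at 690 to 2727 CPM in WT D7 and 897 to 1454 CPM in Trem2-/- D7, so the knockout range lay inside the wildtype range. Of 10 primary granule genes 1 was called, Myb, which also stands on the progenitor list, at 44.4, 39.6, 31.7 and 21.9 CPM against 16.6, 19.9, 20.3 and 20.4 CPM. Its call was lost without WT mouse 1 (-0.62), WT mouse 2 (-0.68) or Trem2-/- mouse 1 (-0.69), which left 0 on each of these lists. Mpo, the peroxidase of primary granules, was at 159 to 358 CPM in WT D7 and 170 to 227 CPM in Trem2-/- D7.

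Of 13 erythroid genes, 1 was called lower. This was Alas2, the first enzyme of heme synthesis in red cell precursors, at 38.0, 64.9, 82.7 and 27.9 CPM in WT D7 and 18.5, 27.4, 18.8 and 49.5 CPM in Trem2-/- D7, with overlap, and its call was lost without WT mouse 2 (-0.74), WT mouse 3 (-0.62), Trem2-/- mouse 1 (-0.71) or Trem2-/- mouse 3 (-0.72). Without WT mouse 4 or Trem2-/- mouse 4 the count was 2. Of 12 platelet and megakaryocyte genes 0 were called in either direction with limma, and the count became 1 without WT mouse 1 and 1 with edgeR or voom. Pf4 was at 12.1 to 18.3 CPM in WT D7 and 14.1 to 18.9 CPM in Trem2-/- D7. Of 10 mast cell and basophil genes, 4 were called lower (median -0.70), Cpa3, Cma1, Hdc and Mcpt8. Mcpt8, a basophil protease, was at 18.3, 16.4, 17.9 and 8.08 CPM against 5.51, 8.82, 9.01 and 6.42 CPM, and WT mouse 4 lay within the knockout range. Hdc, which makes histamine and is also found in myeloid cells, was at 320, 531, 1170 and 825 CPM against 328, 331, 454 and 388 CPM. The calls of Mcpt8 and Cpa3 were lost in 6 and 5 of the 8 fits without 1 mouse, Hdc in 4 and Cma1 in 3. The count of 4 was 0 without WT mouse 3, 1 without WT mouse 1, Trem2-/- mouse 2 or Trem2-/- mouse 4, and 2 without Trem2-/- mouse 1. Of 5 proliferation genes 0 were called, with Mki67 at 256, 199, 170 and 153 CPM against 105, 147, 148 and 132 CPM.

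Of 9 tendon and ligament genes tested, Tnmd, Kera and Scx were called higher in Trem2-/- D7 joints and the list median was 0.53. Tnmd, the tenomodulin of mature tendon cells on chromosome X, was at 65.7, 176, 80.9 and 146 CPM in WT D7 and 379, 274, 290 and 233 CPM in Trem2-/- D7 (log2 fold change 1.41, SE 0.48, adjusted p = 0.558, exact permutation p = 0.0286, the value of any gene with groups apart). Kera, the keratan sulfate proteoglycan keratocan on chromosome 10, was at 38.4, 65.6, 82.2 and 117 CPM against 193, 159, 266 and 201 CPM (log2 fold change 1.51, SE 0.39, adjusted p = 0.451). The knockout mice were all above the wildtype mice for both genes, and the calls held in all 20 alternative settings. Scx, the transcription factor scleraxis, was at 15.5, 33.2, 13.8 and 13.4 CPM against 46.1, 28.9, 33.0 and 29.9 CPM, with WT mouse 2 above 3 knockout mice. Its call was lost without WT mouse 3 (0.80), WT mouse 4 (0.78) or Trem2-/- mouse 1 (0.76).

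The remaining tendon genes were not called. Mkx, a homeobox factor of tendon, was at 5.78, 8.72, 8.24 and 18.2 CPM in WT D7 and 13.0, 12.1, 17.5 and 13.8 CPM in Trem2-/- D7, and Thbs4, a thrombospondin of tendon matrix, was at 956 to 1977 CPM against 1792 to 2675 CPM. Fmod, Cilp2, Angptl7 and Myoc had log2 fold changes of 0.02, -0.09, 0.46 and -0.24. In uninjured joints the order was opposite, with a list median of -0.68 and 3 of the 9 genes called lower in Trem2-/- D0. Mean Tnmd was 77.3 CPM in WT D0 and 39.1 CPM in Trem2-/- D0, and mean Kera was 40.3 and 18.6 CPM. The difference between the D7 and the D0 contrast was 2.38 on the log2 scale for Kera (unadjusted p = 0.000644, adjusted p = 0.579 with limma). For Tnmd it was 2.10 (unadjusted p = 0.00751, adjusted p = 0.579 with limma). Both genes were picked by their D7 calls, which favors a large difference here.

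Of 21 collagens outside cartilage 1 was called, Col7a1, and 18 had the higher mean in Trem2-/- D7 (median 0.29). Col7a1, the collagen of anchoring fibrils, was at 9.33, 10.8, 6.03 and 4.69 CPM in WT D7 and 21.7, 16.3, 11.8 and 11.6 CPM in Trem2-/- D7 (log2 fold change 0.92, SE 0.34, adjusted p = 0.593). The genotypes were apart, but the call was lost without WT mouse 4 (0.74) or Trem2-/- mouse 1 (0.75). Col3a1, a fibrillar collagen of loose tissue and scar, was at 30465, 35789, 20413 and 23697 CPM against 42534, 37426, 37598 and 34004 CPM. One pair of mice, WT mouse 2 and Trem2-/- mouse 4, kept the groups from separating, and the gene was not called (0.49, SE 0.56). In uninjured joints the collagen median was -0.82, with 3 genes called lower in Trem2-/- D0.

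Of 18 elastic fiber and microfibril genes, Mfap4 was called higher. The genotypes did not overlap for 3 of the 18, each higher in Trem2-/- D7, against 3.55% of all genes tested. The count called higher was 6 without the D0 libraries. Mfap4, a microfibril-associated glycoprotein, was at 56.0, 62.6, 38.4 and 86.2 CPM in WT D7 and 123, 141, 137 and 130 CPM in Trem2-/- D7 (log2 fold change 1.17, SE 0.47, adjusted p = 0.615), and its call was lost without WT mouse 3 (0.97). Fbln5 and the crosslinking enzyme Lox were also higher in every knockout mouse but were not called, at 0.38 (SE 0.26) and 0.43 (SE 0.47). Among 10 small leucine-rich proteoglycans, Kera was the gene called. Ogn, or mimecan, was at 232, 335, 145 and 310 CPM against 593, 435, 446 and 366 CPM, with no overlap and no call (0.89, SE 0.45, adjusted p = 0.713). Of 14 matricellular proteins and 19 matrix proteases and inhibitors 0 were called in either direction with limma on all 16 libraries, edgeR or voom. Without the D0 libraries 3 matricellular genes were called higher and 1 lower, and 4 proteases and inhibitors were called higher. The inhibitor Timp2 was at 1168, 1468, 996 and 1489 CPM against 2183, 1778, 2035 and 1502 CPM, and Tnxb was at 267, 222, 249 and 333 CPM against 189, 144, 219 and 194 CPM, each without overlap. Vcam1, an adhesion molecule of the synovial lining, was the 1 gene called of the 6 on that list, at 100, 126, 132 and 160 CPM against 138, 247, 159 and 229 CPM. Its call was lost without WT mouse 1 (0.43), WT mouse 2 (0.54), Trem2-/- mouse 2 (0.42) or Trem2-/- mouse 4 (0.46).

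Of 15 cartilage matrix genes tested, 14 had the lower mean in Trem2-/- D7 and 0 were called with limma on all 16 libraries, edgeR or voom (median -0.48), against 4 lower and 1 higher when D0 libraries were left out of the model. Col2a1, the main collagen of cartilage, was at 49324, 21052, 41790 and 56177 CPM in WT D7 and 18810, 21441, 28969 and 18741 CPM in Trem2-/- D7, with WT mouse 2 inside the knockout range (log2 fold change -0.87, SE 0.96). In uninjured joints the median of the list was -1.70 and 8 of the 15 genes were called lower in Trem2-/- D0. Matn4, a matrilin, was the exception at D7, at 47.9, 48.4, 43.0 and 107 CPM against 131, 77.7, 125 and 71.8 CPM, and was not called.

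**Figure D4:**
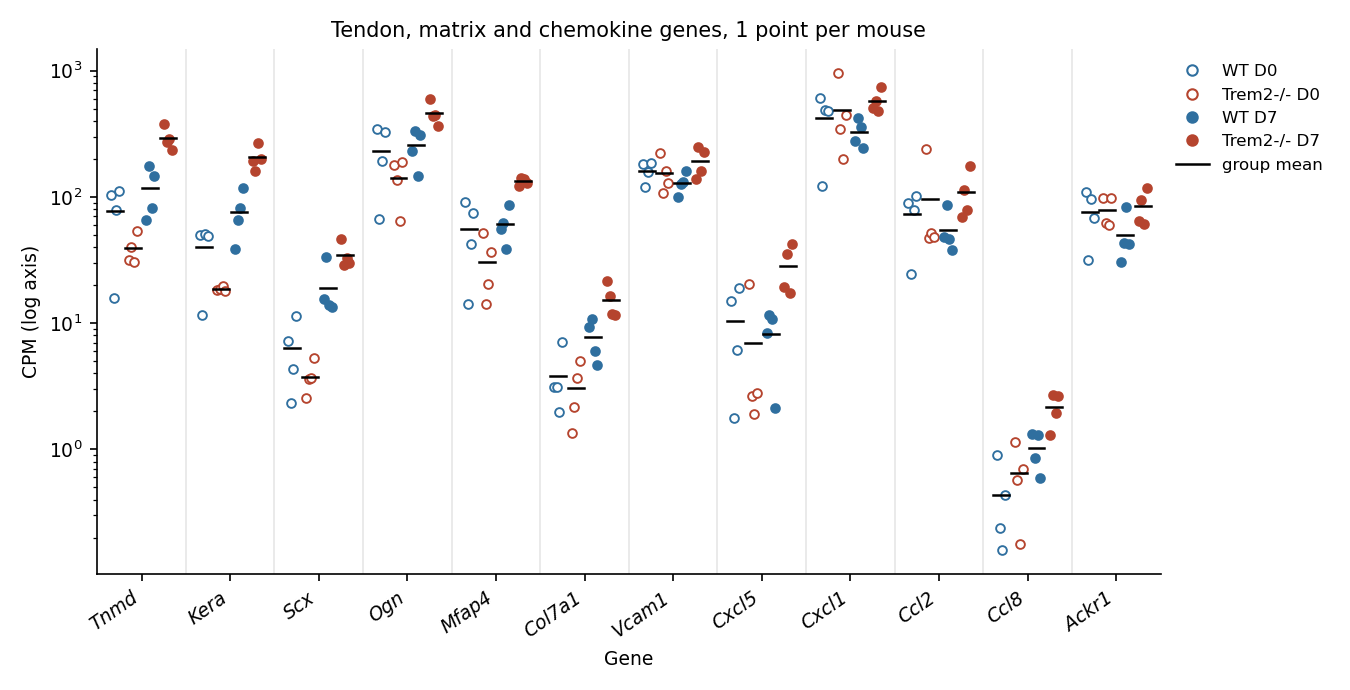
Levels in CPM on a log axis of 12 tendon, matrix and chemokine genes, with 1 point per mouse, 4 mice per group and the group mean as a bar; open points are uninjured and filled points injured joints. Filled red points lie above filled blue points without overlap for Tnmd, Kera, Ogn, Mfap4, Col7a1, Cxcl5 and Cxcl1, while single mice overlap for Scx, Vcam1, Ccl2, Ccl8 and Ackr1.

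Of 13 CXC chemokines 1 was called, Cxcl5, and 3 were higher in every knockout mouse than in every wildtype mouse. Over all genes tested that order held for 3.55%. The count called higher was 5 without the D0 libraries and 0 without both WT mouse 4 and Trem2-/- mouse 3. Cxcl5, a ligand of Cxcr2 on chromosome 5, was at 8.43, 11.5, 10.7 and 2.14 CPM in WT D7 and 19.4, 35.6, 17.4 and 42.1 CPM in Trem2-/- D7 (log2 fold change 1.77, SE 0.68, adjusted p = 0.611). WT mouse 4 was the lowest of the 8 mice, and the call was lost without it (1.32) or without Trem2-/- mouse 4 (1.56). Cxcl1, another Cxcr2 ligand, was at 277, 425, 358 and 244 CPM against 502, 575, 475 and 739 CPM, with no overlap and no call (0.82, SE 0.47, adjusted p = 0.755). Cxcl9, an interferon-induced ligand of Cxcr3, was at 20.3, 11.4, 20.1 and 18.4 CPM against 29.9, 31.4, 21.0 and 34.0 CPM. Cxcl12, the homing signal of stroma, was at 223 to 315 CPM against 235 to 310 CPM.

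Of 13 CC chemokines 1 was called, Ccl8, at 1.32, 0.850, 1.31 and 0.594 CPM in WT D7 and 1.31, 2.69, 1.96 and 2.67 CPM in Trem2-/- D7. Trem2-/- mouse 1 lay within the WT range (log2 fold change 0.64, SE 0.22, adjusted p = 0.558). The monocyte attractants Ccl2 and Ccl7 had log2 fold changes of 0.96 (SE 0.52) and 0.72 (SE 0.60) and were not called, with Ccl2 at 48.2, 85.6, 46.6 and 38.2 CPM against 69.5, 113, 78.3 and 176 CPM. Leaving out WT mouse 1 gave 2 CC chemokines called lower where there had been 0, and leaving out WT mouse 4 or Trem2-/- mouse 4 gave 1. Among 16 chemokine receptors, Ackr1 was called higher and 2 were called lower, of which Ccr9 is described above. Ackr1, the decoy receptor of venules, was at 30.7, 43.1, 83.6 and 42.7 CPM against 64.0, 94.2, 61.0 and 118 CPM, shared 16.9% of its 75-base stretches with the neighbouring gene Cadm3, and lost its call without WT mouse 1 (0.59), WT mouse 2 (0.75), WT mouse 4 (0.74), Trem2-/- mouse 2 (0.72) or Trem2-/- mouse 4 (0.61). The 2 receptors called lower became 4 without WT mouse 1 and 1 without WT mouse 2, WT mouse 3, Trem2-/- mouse 1 or Trem2-/- mouse 3. Ccr2, the receptor for Ccl2 on monocytes, was at 34.3, 30.6, 38.1 and 21.5 CPM against 15.3, 22.7, 17.9 and 22.4 CPM, and WT mouse 4 lay within the knockout range.

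Markers of other tissues were also read across the 8 mice. Of 12 skeletal muscle genes 1 was called lower, Tnnt1, at 5.29, 5.38, 8.51 and 5.58 CPM in WT D7 and 1.71, 5.31, 2.24 and 4.09 CPM in Trem2-/- D7, and that call was lost without WT mouse 3 (-0.65), WT mouse 4 (-0.82), Trem2-/- mouse 1 (-0.59) or Trem2-/- mouse 3 (-0.68). The summed muscle level was 175 to 418 CPM in WT D7 and 192 to 294 CPM in Trem2-/- D7, so the ranges overlapped. Of 8 endothelial, 4 adipocyte, 7 osteoblast and 7 osteoclast genes 0 were called with limma. Osteoblast and osteocyte genes had a median of -0.45 and a summed level of 909 to 2496 CPM in WT D7 and 542 to 1817 CPM in Trem2-/- D7. Their count became 1 without WT mouse 2, and the osteoclast count became 1 higher without WT mouse 1 or Trem2-/- mouse 3. The part of these tissues in the results above was not tested.

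The genes with the largest fold changes, a mean of at least 5 CPM and no overlap between the genotypes included several outside the lists. On the higher side, of 60 genes that met these conditions, the first 10 were Cxcl5, Kera, Tnmd, Mfap4, Col7a1, Gas2, Igfbp3, Masp1, Zfp185 and Stc1. Gas2, a cytoskeletal linker induced at growth arrest, was at 5.29, 7.08, 3.86 and 4.69 CPM in WT D7 and 9.84, 8.96, 11.5 and 11.1 CPM in Trem2-/- D7 (log2 fold change 0.88, SE 0.21, adjusted p = 0.441), and it was called in all 20 alternative settings. Igfbp3, a binding protein of insulin-like growth factors, was at 141, 253, 169 and 189 CPM against 276, 388, 311 and 350 CPM, and lost its call without WT mouse 1 (0.71), WT mouse 3 (0.80), Trem2-/- mouse 2 (0.75) or Trem2-/- mouse 4 (0.80). Masp1, a protease of the lectin pathway of complement, was at 5.71, 8.04, 2.69 and 4.63 CPM against 9.61, 8.75, 11.2 and 8.34 CPM, and lost its call without WT mouse 3 (0.58). Stc1, the secreted hormone stanniocalcin, was at 30.0, 39.4, 51.6 and 44.1 CPM against 62.9, 82.9, 62.8 and 62.4 CPM, and lost its call without WT mouse 1 (0.58) or Trem2-/- mouse 2 (0.62). Zfp185 was at 16.0, 22.3, 10.9 and 18.9 CPM against 38.2, 22.7, 25.5 and 31.0 CPM, and lost its call without WT mouse 3 (0.58), Trem2-/- mouse 1 (0.64) or Trem2-/- mouse 4 (0.74).

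On the lower side, of 260 genes that met the same conditions, the first 10 were Rag1, Spib, Il21r, Stat4, Cd79b, Pou2af1, Cd79a, Ikzf3, Blk and Cyfip2. Stat4, which carries interleukin-12 signals, was at 16.4, 17.5, 38.0 and 21.4 CPM in WT D7 and 9.44, 8.89, 10.4 and 9.68 CPM in Trem2-/- D7 (log2 fold change -1.12, SE 0.27, adjusted p = 0.441), and 19.5% of its 75-base stretches are shared with the annotated gene Gm28177. Ikzf3, the lymphoid zinc finger factor Aiolos, was at 14.0, 11.6, 14.3 and 6.71 CPM against 4.77, 5.44, 5.15 and 3.75 CPM. Cyfip2, an actin regulator, was at 81.5, 91.8, 113 and 84.9 CPM against 37.9, 43.1, 62.8 and 47.6 CPM. All 10 were called in all 20 alternative settings. That the 4 knockout mice were below the 4 wildtype mice in each was a condition of the choice.

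The spread between mice was wider in WT D7 than in Trem2-/- D7. The median SD of log2(CPM + 1) over the genes tested was 0.208 in WT D7 and 0.135 in Trem2-/- D7, and the WT SD was the larger for 75.6% of genes. Tendon genes had a median SD of 0.66 in WT D7 against 0.30 in Trem2-/- D7, marrow genes 0.52 against 0.27, matrix genes 0.44 against 0.24, chemokine genes 0.36 against 0.26, lymphoid genes 0.31 against 0.20 and dendritic genes 0.30 against 0.17. With 4 mice a group these SDs are themselves imprecise, and genes of a library are not independent, so no test was made across genes. Each WT mouse lay over 1 log2 unit from the mean of its 3 group mates for 161, 101, 172 and 179 genes, and each knockout mouse for 17, 9, 47 and 48 genes. WT mouse 2 was not the mouse with the most such genes although its median distance, 0.197, was the largest.

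The genes with the largest SD in WT D7 were Lars2, Coch, Ostn, Mmp13 and Cytl1, and in Trem2-/- D7 Coch, Lars2, Slc15a2, C7 and Ostn. Lars2, the mitochondrial leucyl-tRNA synthetase, was at 347, 20952, 975 and 673 CPM in WT D7 and 584, 8751, 3184 and 8529 CPM in Trem2-/- D7. WT mouse 2 and Trem2-/- mice 2 and 4 were the high mice, and no genotype order was visible. Coch, cochlin, was at 2.02, 1.70, 1.90 and 43.5 CPM against 1.65, 1.65, 41.5 and 1.83 CPM. Ostn, the bone-derived peptide osteocrin, was at 2.30, 0.850, 1.86 and 24.2 CPM against 4.84, 2.83, 21.6 and 2.09 CPM. Mmp13, the collagenase of hypertrophic chondrocytes and osteoblasts, was at 162, 134, 68.3 and 986 CPM against 188, 182, 707 and 160 CPM. WT mouse 4 and Trem2-/- mouse 3 were the high mice for all 3 of these genes. C7, a complement component of fibroblasts, was at 107, 16.1, 14.5 and 8.97 CPM against 4.70, 29.4, 2.69 and 7.84 CPM. Slc15a2, a peptide transporter, was at 18.3, 6.29, 31.6 and 18.7 CPM against 2.15, 1.65, 18.4 and 1.501 CPM, with Trem2-/- mouse 3 again the high mouse of its group.

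**Figure D5:**
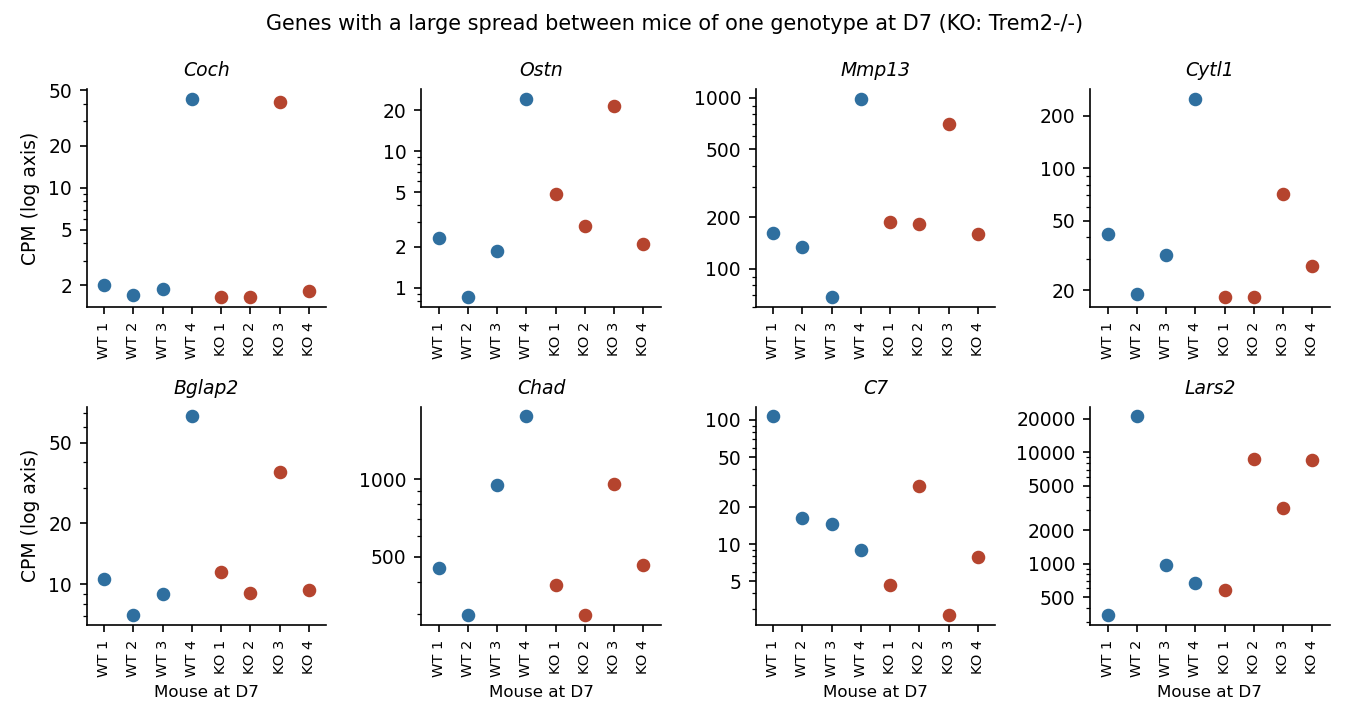
Levels in CPM on log axes of 8 genes in the 8 D7 mice, WT in blue and Trem2-/- (KO) in red, with 1 point per mouse. WT mouse 4 and Trem2-/- mouse 3 are the high mice for Coch, Ostn, Mmp13, Cytl1, Bglap2 and Chad, while C7 is high in WT mouse 1 and Lars2 in WT mouse 2 and Trem2-/- mice 2 and 4.

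The resemblance of WT mouse 4 and Trem2-/- mouse 3 was noticed after the values were seen and was then counted over all genes. WT mouse 4 was more than 1 log2 unit above the mean of its group mates for 128 genes and Trem2-/- mouse 3 for 44 genes, and 27 genes were on both lists, 21.1% of the first and 61.4% of the second. The other 15 pairings of a WT and a knockout mouse shared between 0 and 3 genes. Trem2-/- mice 1, 2 and 4 had 6, 2 and 24 such genes, which limits what their pairings could share. Over all genes tested, the deviations from the group means correlated at 0.36 for WT mouse 4 with Trem2-/- mouse 3. That correlation was 0.39 for WT mouse 3 with Trem2-/- mouse 4 and 0.38 for mouse 1 of both genotypes, so this measure does not single out the first pair. Among the 27 were the cartilage and tendon matrix genes Chad, Cilp2, Omd and Angptl7, the Wnt inhibitor Wif1, the cartilage cytokine Cytl1 and Bglap2, an osteocalcin gene of which 73.3% of the 75-base stretches are shared with Bglap and Bglap3. Chad, chondroadherin, was at 452, 299, 945 and 1745 CPM in WT D7 and 389, 299, 956 and 465 CPM in Trem2-/- D7. Bglap2 was at 10.6, 7.08, 8.93 and 67.3 CPM against 11.6, 9.03, 36.0 and 9.42 CPM. Without both mice, 508 genes were called between the genotypes, 85.2% of them lower in Trem2-/- D7. Tnmd and Kera kept their calls in that setting, at 1.55 and 1.62, and Cxcl5, Scx, Col7a1, Igfbp3 and Masp1 did not, at 1.51, 0.79, 0.84, 0.88 and 0.70.

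The same WT mouse 4 was the lowest wildtype mouse for many lymphoid genes named above, among them Rag1, Pax5, Cd79a, Cd79b, Spib, Gzmb, Siglech and Il21r. The mean log2(CPM + 1) of the pro-B and pre-B list was 3.13, 3.17, 3.12 and 2.52 in WT D7 and 2.16, 2.28, 2.20 and 2.59 in Trem2-/- D7, so that mouse fell within the knockout range. For the mature B cell list the values were 3.48, 3.56, 3.59 and 3.01 against 2.42, 2.59, 2.73 and 2.72, and it stayed above. The plasmacytoid dendritic list was at 3.40, 3.53, 3.67 and 3.24 against 2.81, 2.88, 3.01 and 3.04, without overlap. For the tendon list, WT mouse 4 at 7.46 was above the other WT mice, at 6.01, 6.39 and 6.52, and within the knockout values of 7.10, 6.84, 7.58 and 7.15.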

How the data were processed

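Joint cells of 4 WT D0, 4 Trem2-/- D0, 4 WT D7 and 4 Trem2-/- D7 mice were profiled by mRNA-seq. The authors used STAR with mm10 and featureCounts for gene counts, and deposited a signal table of counts per library size scaled by edgeR TMM factors (tool versions are not given in the sources used here). Whole read counts were recovered from the deposited values for 100% of entries within 0.02 reads. They gave 12873514 to 32867818 reads per D7 library (median 19415154), so that 3 reads correspond to 0.101 to 0.250 CPM, and they cover counting error only.

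Values were tested as log2(CPM + 1) with limma 3.58.1 (lmFit, and eBayes with trend, in R 4.3.3) on all 16 libraries, with 4 group means, for the 13173 genes at 1 CPM or more in at least 4 libraries. Fold changes are therefore on the log2(CPM + 1) scale, which understates the change of low genes. Adjusted p-values are Benjamini-Hochberg over all genes tested, and p-values of a single gene over mice are two-sided exact permutation tests. Alternatives were other pseudocounts, filters and scalings, only the groups compared, a replicate block, a fold change of 1.5, voom and edgeR 4.0.16 on the recovered reads, each library left out, and, chosen after seeing the data, 2 libraries left out together. The test was tried on simulated data of 13062 genes for D7, where 87.8% of genes changed by 1 log2 unit were called, against 4.48% of unchanged genes. Genes were drawn independently there, with the same spread in every group. The simulation thus lacked the wider WT spread and the deviations that genes of 1 mouse share, and 87.8% is not the sensitivity in these data.

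The members and gene lists were chosen with earlier results of these data known. Genes were named by rule: Trem2, the members of each list that were called and those with the highest means, the 10 largest changes per direction (called, mean of at least 5 CPM, groups apart, outside the heatmap) and the 5 largest SDs per group. Other genes are named to account for list members, and the genes shared by 2 mice were picked after their values were seen. Of 411 genes on the lists, 367 were tested. One gene of the heatmap and 3 genes on the lists are not reported here by name, and the last stay in the list counts. Promoters are from RefSeq, and Cd79b, Cxcl5, Scx, Blk and Mfap4 had no entry. Genes with overlapping neighbours or near copies are uncertain, since the strand use of the counting is not given.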

Additional observations from a re-analysis of the deposited data

Results flagged for a closer look

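In 15 of 218 groups of 4 mice tested, the highest or lowest mouse stood apart from the other 3, by a gap over range above Dixon's critical value for 4 samples. Chance flags about 1 in 20 independent groups, which would be 10.9 of 218. These groups come from the same mice, and the genes apart from Trem2 were chosen as called, so 10.9 is only a rough guide. WT mouse 4 was the low mouse of WT D7 for Dntt (0.947), Lck (0.939), Mcpt8 (0.864), Tbx21 (0.840) and H2-Ob (0.837), and for the mean level of the pro-B and pre-B list (0.925). In the same group WT mouse 3 was the high mouse for Btk (0.966) and Tnnt1 (0.891), WT mouse 1 for Ciita (0.856) and WT mouse 2 for Scx (0.843). In Trem2-/- D7, mouse 2 stood apart for Stc1 (0.970), mouse 1 for Myb (0.875) and Fcmr (0.857), mouse 3 for Lat (0.866) and mouse 4 for H2-Ob (0.850).

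For 36 of the 76 named genes the genotype effect at D7 differed from that at D0, at an unadjusted p under 0.05 for the limma interaction. Over all genes tested, 7.79% were called for the interaction. Apart from Trem2, the named genes were chosen by their calls at D7, and the D7 difference is part of the interaction. That choice favors large interaction values, so the count of 36 is not a test of a dependence on injury. None passed the Benjamini-Hochberg adjustment with limma, with adjusted p between 0.579 and 0.61, and over all genes 1075 had an unadjusted p under 0.05 and 0 an adjusted one. Values are the D7 difference minus the D0 difference on the log2 scale. Among tendon and matrix genes they were 2.38 for Kera, 2.10 for Tnmd, 1.88 for Mfap4, 1.39 for Scx and 1.16 for Col7a1, and among the other genes higher in the knockout 2.49 for Cxcl5, 1.24 for Igfbp3, 1.21 for Zfp185, 1.08 for Gas2 and 1.04 for Masp1. Among B cell genes the values were -0.93 for Cd37, -0.90 for Btk, -0.86 for Spib and -0.77 for Bank1. Among T cell, natural killer and receptor genes they were -1.31 for Il21r, -1.06 for Il10ra, -0.78 for Cd28, -0.65 for Tbx21 and -0.51 for Gata3. Dendritic and antigen presentation genes gave -1.06 for Wdfy4, -1.02 for Siglech, -0.83 for H2-Ob, -0.76 for Tlr9 and -0.65 for Ciita. Neutrophil, mast cell and general leukocyte genes gave -1.23 for Padi4, -1.19 for Csf3r, -1.08 for Vav1, -1.04 for Hdc, -0.99 for Coro1a, -0.97 for Lcp1, -0.94 for Laptm5 and -0.83 for Cd53. The last 4 were -1.62 for Tnnt1, -1.34 for Stat4, -1.08 for Cyfip2 and -1.03 for Ikzf3.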

How the results depend on the processing

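The 753 genes called between Trem2-/- D7 and WT D7 were 1366 when D0 libraries were left out of the model and 340 with a fold change over 1.5. The share called lower, 79.3%, was 65.5% and 90.3% in these settings, 66.7% with quantile normalization and 62.2% without WT mouse 2. Leaving out 1 mouse gave 480 (without WT mouse 3) to 1123 (without WT mouse 2) genes. The other settings gave 508 to 891. Adjusted p under 0.05 was reached by 1 gene, Trem2, with a pseudocount of 5 and 1, Trem2, with voom, by 5 without the D0 libraries (Acap1, Hmha1, Il21r, Pou2af1 and Trem2), and by 0 to 1 without 1 mouse. With the replicate block 757 genes were called and 0 after adjustment; same-numbered mice correlated at 0.38, 0.09, -0.08 and -0.07, so the numbers do not pair them. Over 76 named genes and 20 alternative settings, 1288 of 1504 values kept their call and direction, 216 lost the call and 0 reversed; 31 genes kept it in every setting that tested them. Counts of members called lower that moved by over 1.5 times also included pro-B and pre-B genes (7, against 3 with a pseudocount of 5), T cell genes (7, against 3 with quantile normalization), mast cell and basophil genes (4, against 1 with a pseudocount of 5), primary granule genes (1, against 4 without the D0 libraries) and chemokine receptors (2, against 5 without the D0 libraries and 4 with edgeR). Called higher, CC chemokines went from 1 to 4 and small leucine-rich proteoglycans from 1 to 3 without the D0 libraries. The largest median log2 fold change of all genes under another scaling was 0.0215, with quantile normalization, against 0.0077 in the main fit. At 4 mice a group and D7 depths above 12873514 reads, genes near 0.250 CPM rest on few reads, and a missing call does not show that levels were alike.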
